A study of Mus musculus with 6 samples.

Results

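The protocadherins, cell-surface adhesion proteins of the cadherin superfamily, were followed in mesenchyme of the anterior palate, dissected from E12.5 mouse embryos. The members were all genes of the deposited comparison whose symbol starts with Pcdh, which gave 71 of 24421 genes. They divide into 15 genes of the alpha cluster, 22 of the beta cluster, 22 of the gamma cluster and 12 nonclustered genes. RNA came from 3 Wnt1Cre;Meis2f/f samples and 3 wildtype samples, all C57BL/6, and the palatal epithelium had been removed from both genotypes with Dispase II. In the mutants a Cre recombinase under Wnt1 control, active in neural crest cells and their descendants, acts on floxed alleles of Meis2, a homeobox transcription factor, so cells of other origin in the tissue keep the gene. The labels call the 3 samples of a genotype biological replicates and do not say how many embryos each holds, nor their sex. In bulk tissue, fewer cells of a type and less RNA per cell cannot be told apart.

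The clustered protocadherins lie in 3 tandem arrays next to one another. In the alpha and gamma clusters each member has its own promoter and a large variable first exon that is spliced to constant exons shared by the whole cluster, while the beta members are single genes with no shared exon. Neurons choose a few promoters each, with the help of CTCF and cohesin, and the isoforms on a cell surface bind their own kind on neighbouring cells. The C-type members at the end of the alpha and gamma clusters escape this choice and are transcribed more uniformly. The nonclustered members are scattered over the genome, and most belong to the delta protocadherins. Those of the delta1 group (Pcdh1, Pcdh7, Pcdh9, Pcdh11x) carry a motif that binds protein phosphatase 1, and several of the delta2 group (Pcdh8, Pcdh10, Pcdh17, Pcdh18, Pcdh19) recruit the WAVE complex, which drives actin branching.

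The proximal promoters of the 3 members that passed the test are shown because they are the start sites nearest to a change, together with that of Pcdh18, the most abundant member, which did not pass it. The 250 bases before each RefSeq start (GRCm38.p6) are given 5′ to 3′ on the strand of the gene. Capitals mark CCAAT, the binding letters of NF-Y, on either strand, a motif chosen after the sequences had been seen. The windows are chr3:45378148-45378397 (plus strand) for Pcdh10, chr14:93890670-93890919 (minus) for Pcdh9, chrX:133688994-133689243 (minus) for Pcdh19 and chr3:49757317-49757566 (minus) for Pcdh18.
Pcdh10: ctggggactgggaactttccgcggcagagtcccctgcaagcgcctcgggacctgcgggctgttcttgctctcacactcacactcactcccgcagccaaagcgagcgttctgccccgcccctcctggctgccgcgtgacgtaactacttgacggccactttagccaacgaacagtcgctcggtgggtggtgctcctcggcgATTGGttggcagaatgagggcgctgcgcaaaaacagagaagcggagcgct
Pcdh9: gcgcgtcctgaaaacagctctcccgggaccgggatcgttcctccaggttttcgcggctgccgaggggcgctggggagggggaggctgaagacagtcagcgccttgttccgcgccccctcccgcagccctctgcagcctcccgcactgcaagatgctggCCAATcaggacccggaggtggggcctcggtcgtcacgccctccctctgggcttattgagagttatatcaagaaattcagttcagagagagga
Pcdh19: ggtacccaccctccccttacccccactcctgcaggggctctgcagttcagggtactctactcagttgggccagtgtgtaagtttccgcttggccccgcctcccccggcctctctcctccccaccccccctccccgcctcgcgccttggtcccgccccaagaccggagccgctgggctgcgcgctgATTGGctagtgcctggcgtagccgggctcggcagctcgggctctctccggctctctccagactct
Pcdh18: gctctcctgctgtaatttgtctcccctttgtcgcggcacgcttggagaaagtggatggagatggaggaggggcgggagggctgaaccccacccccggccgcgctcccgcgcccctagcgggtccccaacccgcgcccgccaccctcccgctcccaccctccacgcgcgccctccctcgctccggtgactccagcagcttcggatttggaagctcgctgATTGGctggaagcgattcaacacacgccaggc
CCAAT, read as CCAAT or ATTGG, began 50 bases before the start of Pcdh10, 92 before that of Pcdh9, 65 before that of Pcdh19 and 32 before that of Pcdh18. Over the 10 windows that the RefSeq table gives for 9 of the nonclustered members, 9 held CCAAT. The share was 33.8% in 32851 windows of the same length in the table. Pcdh9 has a second, overlapping window (chr14:93890680-93890929) that holds the same CCAAT, there 82 bases before the start. Since the motif was chosen after the sequences had been seen, the difference in shares is no test. The Meis core hexamer TGACAG, searched on both strands, was in 0 of the 10 windows, against 15.9% of all windows. GC content was 63.2% for Pcdh10, 63.6% for Pcdh9, 69.2% for Pcdh19 and 68.0% for Pcdh18, and the median window had 52.4%. These matches describe letters within these windows.

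The deposited tables hold, for each gene, a base mean (the mean over the libraries of reads divided by a library's size factor) and a DESeq2 comparison of the genotypes, with no value per library. A fold change is given as log2, mutant over wildtype, with its standard error (SE), and is moderated, which draws it towards 0 for genes with few reads. The deposited tables state no direction, which was read from Meis2, negative in both tables. One table covers all 6 libraries, and another covers 4 of the same 6, with 2 of each genotype, so their values are not independent. Whole reads per library were recovered by solving the 2 base means of a gene for the whole numbers behind them, and all 68 members with any reads gave exactly 1 solution. Unless limma is named, each log2 fold change, SE and p below is taken from the authors' deposited table of 6 libraries, and the 95% intervals were computed from its SE. The libraries are called A, B and C within a genotype in order of falling size factor, and these letters are not the replicate numbers of the labels. The recovered genes summed to between 5850100 and 10611075 reads per library, with size factors from 0.775 to 1.44, and the 4-library table leaves out mutant B and wildtype B.

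Meis2, the targeted gene, had 1250, 1378 and 1218 normalised reads (reads divided by the size factor) in mutant libraries A, B and C, against 1526, 1549 and 1695 in wildtype libraries A, B and C. All 3 mutant libraries lay below all 3 wildtype libraries. Every direction in this report was read from Meis2, so its being lower in mutants was set by that reading and is not a result. The log2 fold change of Meis2, -0.28 (SE 0.092), had a DESeq2 adjusted p of 0.0743, which misses the threshold of 0.05. In the 4-library table the adjusted p of Meis2 was 0.0213. Which part of Meis2 the floxed allele removes is not in the labels, and its bearing on these reads was not tested. Listed markers of several other cell types moved with genotype. The summed normalised reads of 9 measured neuron markers ranged from 641 to 788 in mutant libraries and from 1157 to 1543 in wildtype libraries. Those of 7 Schwann cell and glia markers ranged from 1091 to 1221 in mutant and from 1253 to 1674 in wildtype libraries. The 8 of 11 measured muscle markers with recovered reads summed to 866 to 1514 in mutant and 396 to 524 in wildtype libraries. The sums of 8 macrophage markers ranged from 1059 to 1238 in mutant and from 709 to 885 in wildtype libraries. At a DESeq2 adjusted p under 0.05, 6 neuron markers and 1 glia marker were lower, and 6 muscle and 3 macrophage markers were higher. The same lists had 0 calls the other way. Of all genes tested, 1.16% were lower and 1.75% were higher. Of 7 neural crest mesenchyme markers, 1 rose and 3 fell (median log2 fold change -0.31), and the sum of the 4 with recovered reads ranged from 2063 to 2287 in mutant and from 1745 to 2905 in wildtype libraries. Sums for endothelium, pericytes and epithelium overlapped between genotypes, and no listed marker was at 0. Their part in the results on protocadherins was not tested.

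Per kilobase of exon that no other protocadherin shares (GENCODE M21, GRCm38), the measured members, meaning those with a base mean of at least 10, spanned from 2.27 base mean units per kilobase for Pcdha11 to 1628 for Pcdh18. Pcdh18 was followed by Pcdh7 at 493, Pcdhgc3 at 421 and Pcdhgb6 at 243. The nonclustered members carried 62.3% of the summed base mean of the family, the gamma cluster 28.4%, the beta cluster 8.51% and the alpha cluster 0.726%. Pcdh18 alone held 39.7% of the nonclustered sum. The median per kilobase was 140 for the 22 gamma genes, 24.6 for 21 beta genes and 7.03 for the 7 alpha genes with an annotated length. Within the alpha cluster the C-type gene Pcdhac2 was highest at 35.6, and within the gamma cluster the C-type gene Pcdhgc3 was highest while the C-type gene Pcdhgc5 was lowest at 27.9. The sources used here do not say how reads in shared exons were counted, so levels of alpha and gamma members are uncertain. Pcdha4, Pcdha6 and Pcdha7 were listed at 0, so reads of the constant exons were not counted for every alpha member.

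**Figure D1:**
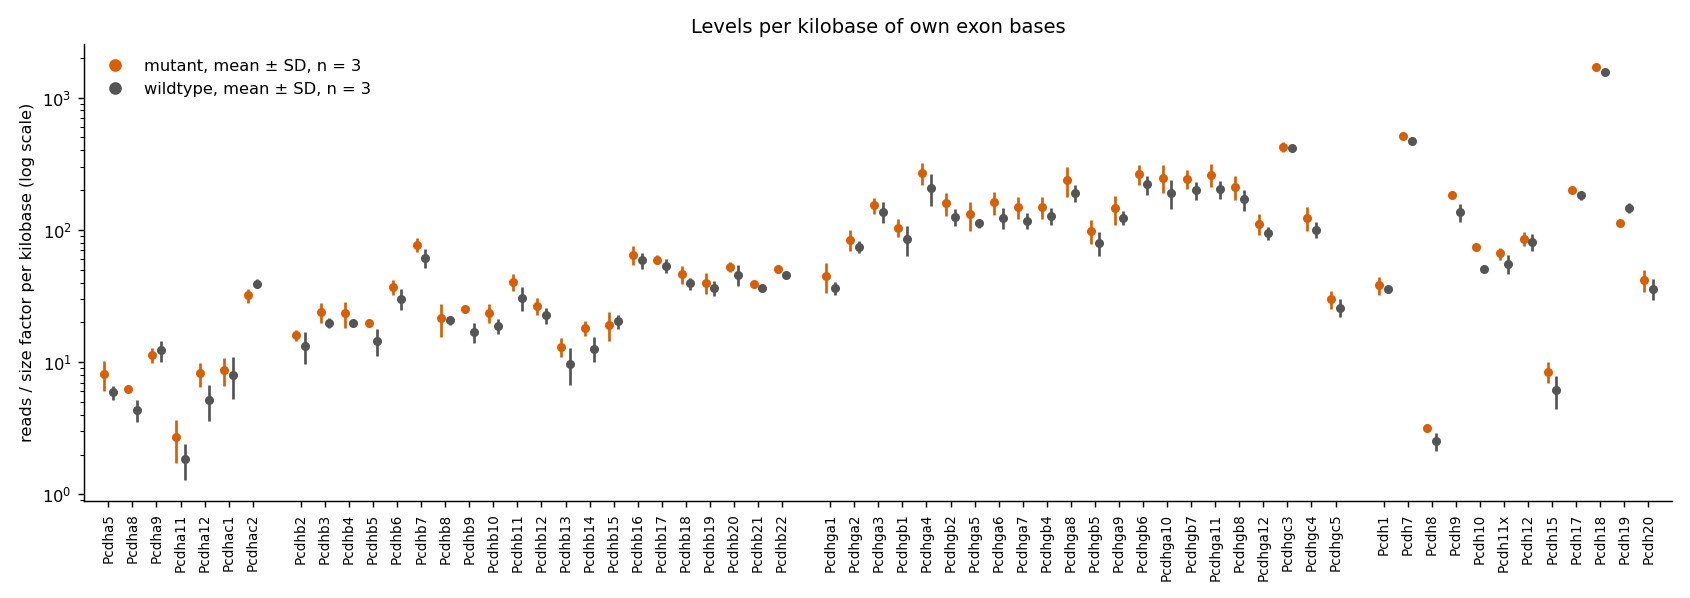
Normalised reads per kilobase of own exon (log axis) for measured members with an annotated length, in chromosomal order within the clusters and by number in the nonclustered set, as mean and SD of 3 mutant (orange, left of each pair) and 3 wildtype (grey) libraries. Pcdh18 stood highest at 1628 over both genotypes, and most gamma members stood above most beta and all alpha members.

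Of the 64 members with an adjusted p in DESeq2, 2 rose and 1 fell in mutants at an adjusted p under 0.05, all 3 of them nonclustered. The background was 1.75% higher and 1.16% lower among 14939 genes tested, or 2.91% in either direction. Pcdh10 and Pcdh9 rose and Pcdh19 fell. None of the 52 clustered members tested passed, and at an unadjusted p under 0.05 there were 9 of 51 measured clustered members, all 9 higher, against a background of 5.46% higher and 5.21% lower among 14576 genes. In limma on the recovered reads, a test added after the data were seen, Pcdh10 alone of all members passed, against a background of 2.25%. In the authors' deposited table of 4 libraries, 2 members rose (Pcdh10 and Pcdh9) and 0 fell, against 1.31% higher and 0.99% lower of 14548 genes, or 2.3% in all.

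Pcdh10 (chromosome 3, 45378398 to 45435623, plus strand), a delta2 protocadherin that recruits the WAVE complex at cell contacts, had 1229, 1117 and 1217 normalised reads in mutant libraries A, B and C, against 817, 779 and 837 in wildtype libraries A, B and C. Every mutant library lay above every wildtype library. The means were 1188 ± 61.6 in mutant and 811 ± 29.1 in wildtype libraries (SD, n = 3 each). In the authors' deposited table the log2 fold change was 0.49 (SE 0.092), a factor of 1.41, with a DESeq2 adjusted p of 1.19e-05, and 0.50 with an adjusted p of 4.26e-05 in the 4-library table. It stayed past the threshold in limma without any 1 of the 6 libraries, with a highest adjusted p of 0.041.

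Pcdh9 (chromosome 14, 93013410 to 93890679, minus strand), a delta1 protocadherin, had 1162, 1304 and 1299 normalised reads in mutant libraries, against 860, 1095 and 826 in wildtype libraries. The groups did not overlap, and wildtype B lay nearest to the mutant libraries. The authors' deposited table gave a log2 fold change of 0.37 (SE 0.107), with a DESeq2 adjusted p of 0.0209. In the 4-library table, which leaves out wildtype B and mutant B, it was 0.47 with an adjusted p of 2.66e-04. In limma its adjusted p was 0.072 over the 6 libraries, and between 0.00948 and 0.327 with 1 library left out, lowest without wildtype B.

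Pcdh19 (chromosome X, 133582860 to 133688987, minus strand), a delta2 protocadherin that pairs with N-cadherin and whose human gene is mutated in an X-linked epilepsy, was the only called member that fell. It had 1183, 1237 and 1143 normalised reads in mutant libraries, against 1521, 1687 and 1415 in wildtype libraries, and the groups did not overlap. In the authors' deposited table its log2 fold change was -0.33 (SE 0.094), with a DESeq2 adjusted p of 0.0157. In the 4-library table it was -0.29 with an adjusted p of 0.0678, and in limma the adjusted p was 0.052 over 6 libraries and between 0.0419 and 0.209 with 1 left out, lowest without mutant B. The sum of 4 Y-linked genes also differed between the genotypes. Their summed normalised reads ranged from 4790 to 5433 in mutant and from 3331 to 4438 in wildtype libraries. Uty at a log2 fold change of 0.42 and Kdm5d at 0.39 passed the threshold, against 1.75% higher of all genes tested. Ddx3y at 0.22 and Eif2s3y at 0.27 did not pass it. The groups did not overlap for Uty, and they overlapped for Kdm5d, Ddx3y and Eif2s3y. The labels give no sex, and the part of sex in the values of Pcdh19 and of the X-linked Pcdh11x was not tested.

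**Figure D2:**
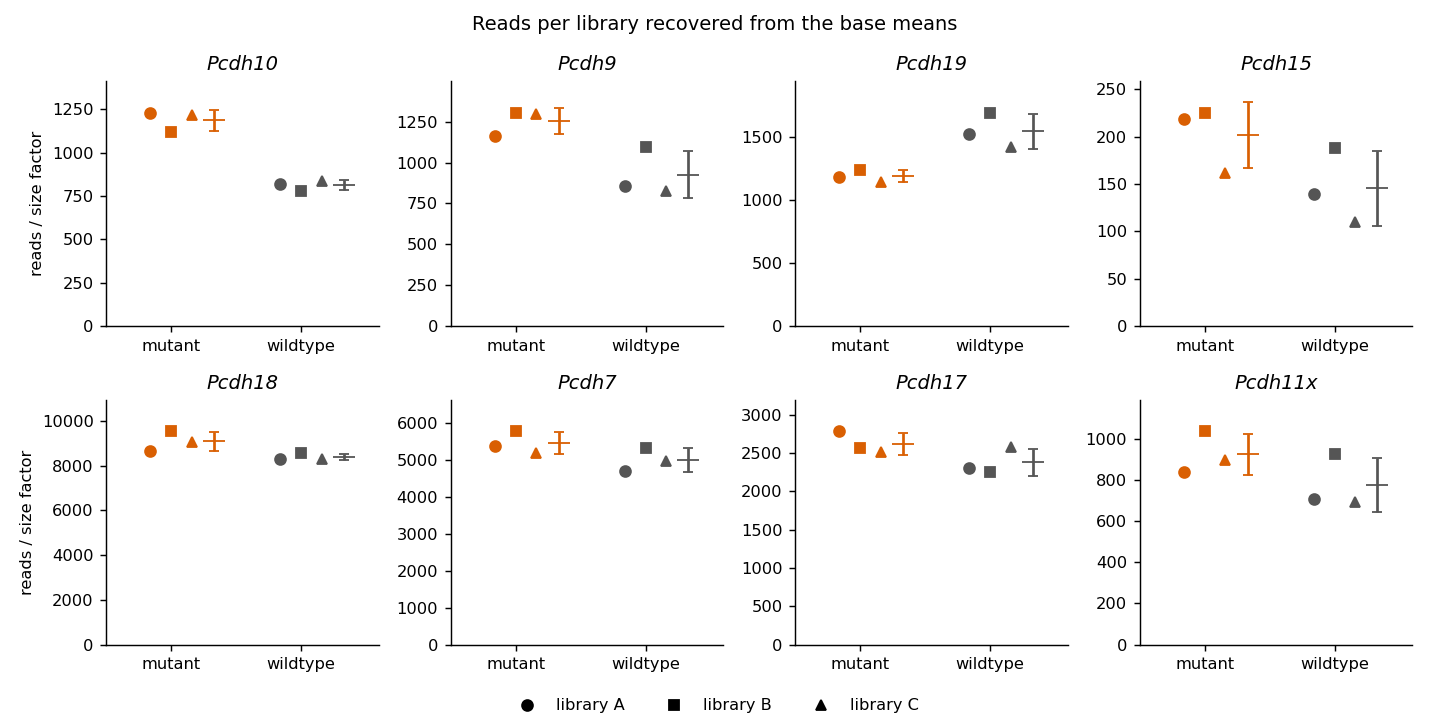
Normalised reads per library (vertical axis, from 0) of 8 nonclustered protocadherins in mutant (orange, left) and wildtype (grey) samples, with the mean and SD of 3 beside the points. The groups do not overlap for Pcdh10, Pcdh9, Pcdh19 and Pcdh18, and they overlap for Pcdh15, Pcdh7, Pcdh17 and Pcdh11x. Of 13705 genes, 8.84% had every mutant library above every wildtype library and 8.92% had the reverse. Pcdh18 did not pass the test.

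Pcdh15, which with cadherin 23 forms the tip links of hair cells in the inner ear, had 218, 225 and 161 normalised reads in mutant libraries, against 139, 188 and 110 in wildtype libraries. The groups overlapped, since mutant C lay below wildtype B. Its log2 fold change of 0.32 (95% interval 0.04 to 0.60) in the authors' deposited table had an unadjusted p of 0.0231 and an adjusted p of 0.333. Of the 4 measured genes listed as mechanotransduction partners, 1 rose and 0 fell, against 1.75% higher and 1.16% lower of all genes tested. That gene was Cdh23, with 101, 116 and 88.0 normalised reads in mutant libraries, against 53.5, 44.9 and 34.9 in wildtype libraries. Cdh23 had a log2 fold change of 0.68 with a DESeq2 adjusted p of 3.68e-04, and 0.41 with an adjusted p of 0.106 in the 4-library table.

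The other nonclustered members did not pass the test. Pcdh18, a delta2 protocadherin that binds the adaptor Dab1, had 8656, 9529 and 9064 normalised reads in mutant libraries, against 8318, 8559 and 8301 in wildtype libraries. The groups did not overlap, but the interval included 0, with a log2 fold change of 0.11 (95% interval -0.05 to 0.26). Pcdh7, a delta1 member that binds protein phosphatase 1, had 5386, 5765 and 5191 in mutant libraries, against 4692, 5332 and 4976 in wildtype libraries, with a log2 fold change of 0.11 (95% interval -0.05 to 0.28). Its groups overlapped, as did those of Pcdh17, which had 2782, 2567 and 2514 in mutant and 2311, 2250 and 2575 in wildtype libraries. The log2 fold change of Pcdh17 was 0.13 (95% interval -0.05 to 0.30). Pcdh11x, an X-linked delta1 member, had 839, 1037 and 900 in mutant and 707, 926 and 695 in wildtype libraries, with a log2 fold change of 0.21 (95% interval -0.01 to 0.43). The B library was the highest of each genotype for Pcdh11x, and also for Pcdh12, a protocadherin of endothelial cells. Pcdh12 had 465, 590 and 506 in mutant and 449, 575 and 453 in wildtype libraries, with a log2 fold change of 0.07 (95% interval -0.16 to 0.29). Pcdh1, a delta1 member of epithelia, had 348, 384 and 280 in mutant and 292, 329 and 318 in wildtype libraries, with a log2 fold change of 0.09 (95% interval -0.14 to 0.33). Pcdh20 had 273, 184 and 231 in mutant and 222, 157 and 212 in wildtype libraries, with a log2 fold change of 0.16 (95% interval -0.11 to 0.42). It ran against the pattern of Pcdh12, with the B library lowest in both genotypes. Pcdh8, a delta2 member of the early mesoderm, was near the floor of the measured range, with 13.2, 15.1 and 14.7 in mutant and 13.6, 10.6 and 10.3 in wildtype libraries.

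**Figure D3:**
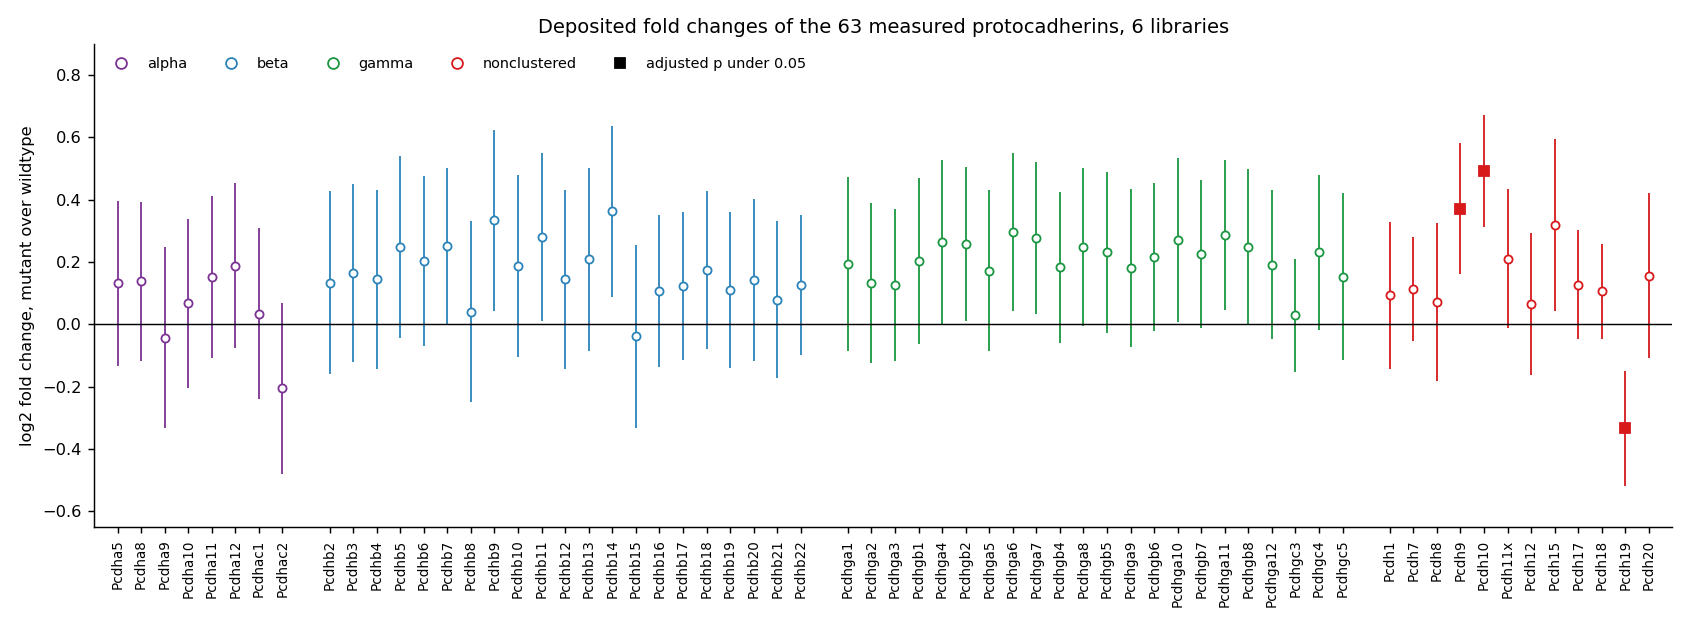
Deposited log2 fold change, mutant over wildtype (vertical axis), of the 63 measured protocadherins with 95% intervals in chromosomal order within each cluster; filled squares mark an adjusted p under 0.05. The 3 squares are Pcdh9, Pcdh10 and Pcdh19, and all 22 gamma members lie above 0.

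Of the 63 measured members, 59 had a deposited log2 fold change above 0, with a median of 0.17. Of all genes measured by the same minimum, 46% were above 0 and the median was -0.01. By set, the median was 0.22 for gamma with 22 of 22 above 0, 0.14 for beta with 20 of 21, 0.12 for nonclustered with 11 of 12 and 0.10 for alpha with 6 of 8. In the 4-library table the medians were 0.20 for gamma, 0.12 for beta, 0.12 for nonclustered and 0.05 for alpha. Exon length also moved with the fold change, and its part was not tested. Here exon length is the total of a gene, with the exons shared in a cluster counted for each member. In 2347 genes within the exon length and base mean range of the gamma members, 46.5% were above 0 and the median was -0.01. Among 823 genes with at least 12000 exon bases, 70.5% were above 0 with a median of 0.06. Among measured members, 9 had every mutant library above every wildtype library and 1 the reverse, against 8.84% and 8.92% of 13705 genes.

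In the gamma cluster (chromosome 18, 37661793 to 37841873, plus strand), the summed normalised reads of the 22 genes were 10787, 12931 and 9068 in mutant libraries A, B and C, against 8585, 10585 and 8263 in wildtype libraries A, B and C. The groups overlapped, since mutant C lay below wildtype B. The mean was 10928 ± 1935 in mutant and 9145 ± 1258 in wildtype libraries (SD, n = 3 each), a ratio of 1.195. Leaving out 1 library gave log2 ratios of the sums between 0.12 and 0.38, lowest without mutant B and highest without wildtype B. No gamma gene had groups that did not overlap. Over 13705 genes, 8.84% had every mutant library above every wildtype library and 8.92% had the reverse. At an unadjusted p under 0.05, 5 gamma genes were higher (Pcdhga6, Pcdhga7, Pcdhga10, Pcdhga11 and Pcdhgb2) and 0 were lower, against 5.46% higher and 5.21% lower of all genes. Over the 4 libraries, 9 gamma genes were higher and 0 were lower, against 4.68% higher and 4.7% lower of 14559 genes. Pcdhga11, the most abundant of the A type in base mean, had 683, 828 and 564 normalised reads in mutant libraries, against 527, 624 and 461 in wildtype libraries. Its log2 fold change was 0.29 (SE 0.123) with a DESeq2 adjusted p of 0.298. Pcdhgb6, the most abundant of the B type, had 625, 819 and 604 in mutant and 509, 673 and 516 in wildtype libraries, at 0.22 on the log2 scale (adjusted p 0.564). Pcdhga6 had the largest log2 fold change of the cluster, 0.30, with 438, 498 and 333 in mutant and 310, 386 and 272 in wildtype libraries.

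The deposited log2 fold changes of the 5 C-type members lay between -0.21 and 0.23, and none passed the test. Pcdhgc3, the most abundant gene of the 3 clusters, had 1349, 1576 and 1390 normalised reads in mutant libraries, against 1359, 1446 and 1415 in wildtype libraries. Its deposited log2 fold change was 0.03 (95% interval -0.15 to 0.21) and -0.0096 in the 4-library table, so its direction depended on the table. Pcdhgc4, needed for the survival of neurons, had 418, 521 and 347 in mutant and 329, 404 and 314 in wildtype libraries, with a log2 fold change of 0.23 (95% interval -0.02 to 0.48). Pcdhgc5 had 150, 195 and 149 in mutant and 119, 162 and 146 in wildtype libraries, with a log2 fold change of 0.15. Of the alpha C-type genes, Pcdhac1 was at 0.03 with 20.2, 28.2 and 18.3 in mutant and 21.6, 27.2 and 12.9 in wildtype libraries. Pcdhac2 had the lowest log2 fold change of the measured clustered members, at -0.21 (95% interval -0.48 to 0.07), with 88.3, 92.2 and 110 in mutant and 109, 119 and 128 in wildtype libraries. The difference between C-type and other members was not tested.

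**Figure D4:**
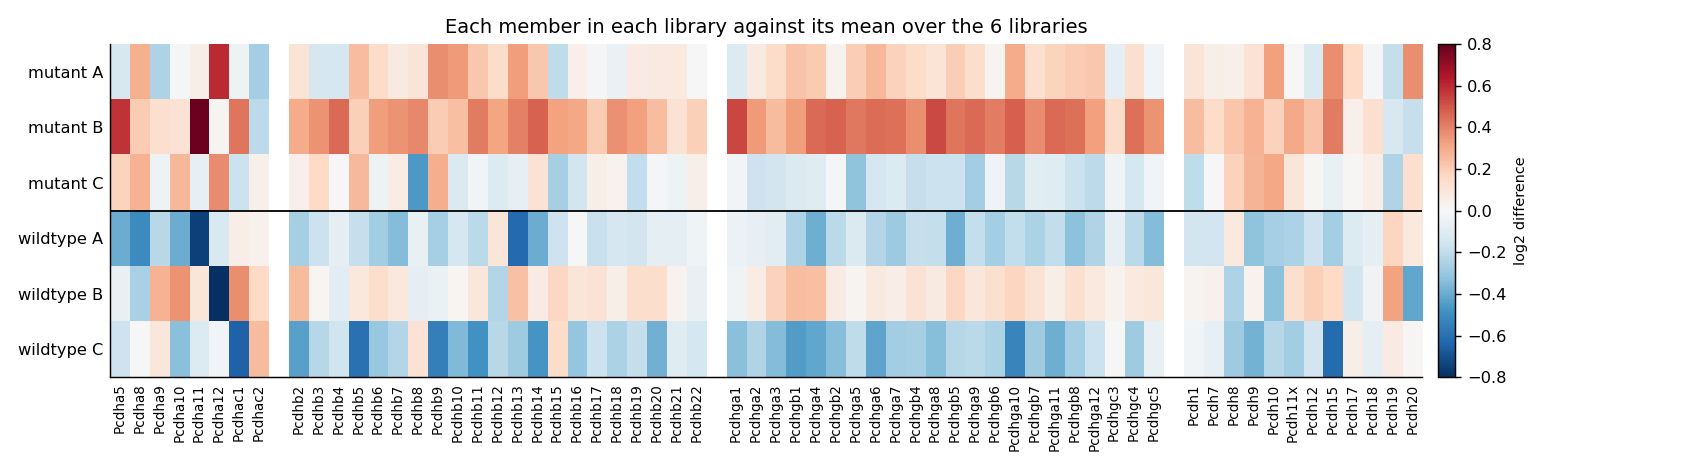
Each measured protocadherin (columns, in the order of the fold-change plot) in each library (rows, mutant above wildtype) as the log2 difference of its normalised reads plus 1 from its mean over the 6 libraries; red is above and blue below that mean. The mutant B row is red across the gamma members and mutant C is near or below 0 there.

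Many members, and all those of the gamma cluster, shared a pattern across libraries that was not one of genotype. Library B was the highest of its genotype in both mutant and wildtype for 22 of 22 gamma, 14 of 21 beta, 4 of 8 alpha and 8 of 12 nonclustered members, against 23.2% of 13705 genes. The gamma sum was 30.3% above the mean of libraries A and C in mutant B and 25.7% above it in wildtype B. The same figure was 21.2% in mutant B and 19.9% in wildtype B for the beta sum, and 6.28% in mutant B and 6.59% in wildtype B for the nonclustered sum. Of the 8 lists of cell type markers, 5 had their highest sum of each genotype in library B too, namely endothelium, epithelium, pericytes, macrophages, and Schwann cells and glia. The gene Rn45s made up 14.0% of the summed base mean over the 6 libraries and 17.4% over the 4 without library B. The part of these lists and of Rn45s in this pattern was not tested.

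**Figure D5:**
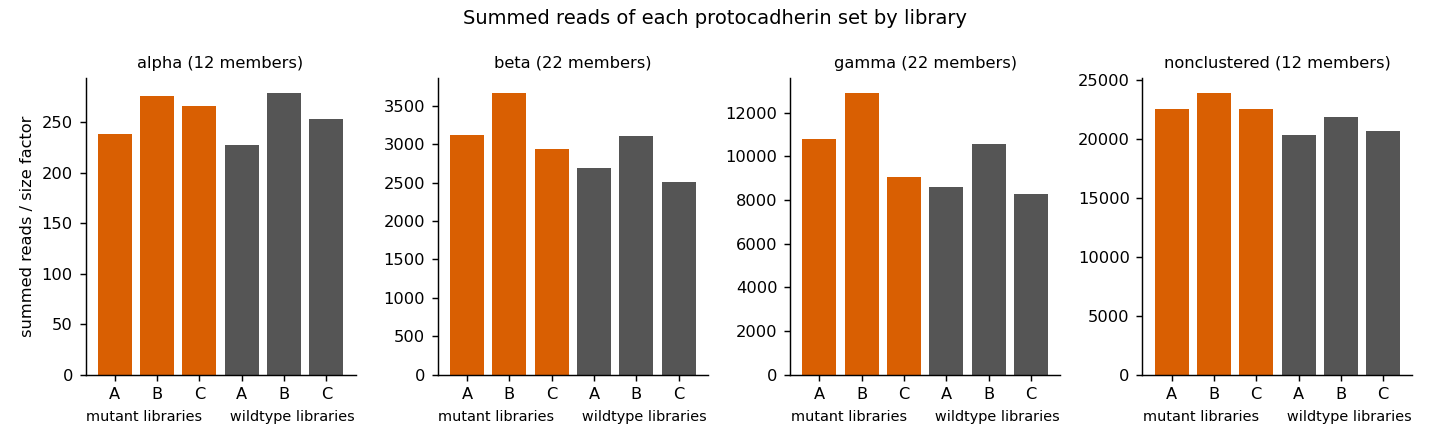
Summed normalised reads of each set (vertical axis, from 0) by library, with mutant libraries in orange on the left and wildtype in grey. Library B is the highest of each genotype in all 4 sets. Only the nonclustered sums, 22522 to 23954 in mutant and 20340 to 21888 in wildtype libraries, separate the genotypes. Pcdh18 held 39.7% of the nonclustered summed base mean. The ratio of mutant to wildtype mean sums was 1.10 for nonclustered, 1.03 for alpha, 1.17 for beta and 1.195 for gamma members. Of 13705 single genes, 8.84% had every mutant library above every wildtype library.

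In the beta cluster (chromosome 18, 37264938 to 37524479, plus strand), 4 of 21 measured genes had an unadjusted p under 0.05, all higher. Of 14576 genes measured by the same minimum, 5.46% were higher and 5.21% were lower at that p. Over the 4 libraries, 2 beta genes were higher and 0 were lower, against 4.68% higher and 4.7% lower of 14559 genes. Pcdhb14 had the largest log2 fold change of the clustered members, 0.36 (SE 0.140), with 152, 182 and 142 normalised reads in mutant libraries, against 99.1, 137 and 94.3 in wildtype libraries. Its groups did not overlap, and its DESeq2 adjusted p was 0.191. Pcdhb9 had 81.4, 72.4 and 77.0 in mutant and 51.9, 60.3 and 42.6 in wildtype libraries, at 0.34 on the log2 scale (adjusted p 0.337). Pcdhb11 and Pcdhb7, at 0.28 and 0.25, had overlapping groups. The most abundant beta gene in base mean, Pcdhb16, had 331, 398 and 290 in mutant and 322, 344 and 260 in wildtype libraries, with a log2 fold change of 0.11. Pcdhb22 had 294, 338 and 305 in mutant and 288, 284 and 267 in wildtype libraries and Pcdhb19 had 282, 339 and 235 in mutant and 244, 297 and 236 in wildtype libraries, at 0.13 and 0.11. Pcdhb1 had 1 read in the 6 libraries. The beta sum was 3125, 3671 and 2931 in mutant libraries, against 2684, 3109 and 2501 in wildtype libraries, and overlapped between genotypes. Beta members are closely similar in sequence, and reads that fit several of them may be lost or split.

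In the alpha cluster (chromosome 18, 36930184 to 37187661, plus strand), 8 of 15 members were measured, 4 lay below a base mean of 10 and 3 were listed at 0. The sum over alpha members was 238, 276 and 265 in mutant libraries, against 227, 279 and 253 in wildtype libraries, a ratio of 1.03 that a single library could turn round. Pcdha9, the most abundant of the variable alpha members in base mean, had 24.3, 32.0 and 28.1 normalised reads in mutant libraries, against 24.8, 35.5 and 31.0 in wildtype libraries. Pcdha12, at 20.4 ± 4.19 in mutant and 12.7 ± 3.88 in wildtype libraries (SD, n = 3 each), had groups that did not overlap, as did Pcdha8, at 15.6 ± 0.519 in mutant and 10.8 ± 2.06 in wildtype libraries. Neither passed the test, with log2 fold changes of 0.19 and 0.14. Every mutant library lay above every wildtype library in 8.84% of 13705 genes.

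Of the genes that act on promoter choice in the clusters, a list that holds Ctcf and the cohesin subunits Rad21, Smc1a and Smc3, 0 of 19 measured passed the test, and their median log2 fold change was -0.04. Of 23 measured genes for the intracellular partners of protocadherins, 2 fell and 0 rose, against 1.16% lower and 1.75% higher of all genes tested, and the median was -0.08. Dab1, an adaptor bound by Pcdh18 and best known downstream of reelin, had 81.4, 119 and 86.8 normalised reads in mutant libraries, against 178, 194 and 207 in wildtype libraries, a log2 fold change of -0.70 with a DESeq2 adjusted p of 3.77e-05. Cdh2, the N-cadherin that pairs with Pcdh19, had 1490, 1603 and 1580 in mutant libraries, against 1936, 2045 and 2003 in wildtype libraries, at -0.33 with an adjusted p of 0.00608. The groups did not overlap for either gene. With 1 library left out, limma kept Dab1 past the threshold in 6 of 6 fits and Cdh2 in 1 of 6, with an adjusted p of up to 0.17 for Cdh2. The lower sum of the neuron markers moved with both genes, and its part was not tested. Of 12 measured large cadherins related to the protocadherins, 2 rose and 0 fell, against 1.75% higher and 1.16% lower of all genes tested, with a median of 0.10. These were Fat3 at 0.73 (adjusted p of 1.38e-10) and Fat1 at 0.35 (adjusted p of 0.0136), and the 4-library table added Fat4.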

How the data were processed

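RNA-seq of E12.5 anterior palatal mesenchyme was compared between 3 Wnt1Cre;Meis2f/f and 3 wildtype samples. RNA was purified with RNeasy Micro Plus, amplified and made into TruSeq RNA v2 libraries, as the labels' protocols say. The submitters' processing notes name HISAT2, featureCounts, DESeq2 and the mm10 build. The sources used here give neither versions nor the strand setting, so reads of overlapping antisense genes cannot be told apart. The authors deposited 3 tables of their own comparison: 1 over 6 libraries, 1 over 4 of them, and 1 of 1613 rows that repeats the genes of the first with a p under 0.05, and that holds 13 members. The series text instead describes each table as a pair of samples. In the deposited tables the base mean is a signal, reads divided by size factors and averaged over libraries. The deposited fold change is log2, with its SE also on the log2 scale. The deposited Wald statistic is a score. The deposited p-value and adjusted p-value are the authors' DESeq2 results, with adjustment over all genes tested.

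From there, whole reads per library were recovered. The smallest base means give what 1 read is worth in each library, and each gene's base means in both tables were solved for whole numbers of reads. Of 13742 genes attempted with a base mean of at least 10, 13705 had exactly 1 solution and 0 had several. Genes with a base mean above 3000, unless listed, were not attempted. On simulated data, 585 of 600 genes had 1 solution and all 585 were right. The libraries of a genotype follow from the deposited fold changes of genes with a single read. For 1755 genes with an absolute log2 fold change above 0.2, the sign of the recovered ratio was the same for 100%. This match is partly built in, because at higher base means solutions were sought only near the deposited fold change. The limma test (version 3.58.1, R 4.3.3) used log2 of normalised reads plus 1. Tested on simulated data of 13705 genes, it recovered 54% of genes changed by a log2 of 0.5 and 90% of those changed by 1. Counting error and the number of replicates limit the precision of members with few reads.

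The members and gene lists were chosen with earlier results of these data known. Named were Meis2, each member past the threshold or with an unadjusted p under 0.05, the 3 most abundant of each set in base mean, all nonclustered and C-type members, and called genes of the 4 lists; Pcdha8, Pcdha12 and Pcdh18's promoter were chosen after their values were seen. Alternatives are given at the end.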

Additional observations from a re-analysis of the deposited data

How the results depend on the processing

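No paired analysis was possible because the recovered libraries carry no replicate number. The 3 calls among members were also made with adjustment over every gene with a p, over genes past a base mean of 10, and at a threshold of 0.1. There were 2 in the 4-library table, 1 at a threshold of 0.01 and 1 in limma on the recovered reads, all among nonclustered members. With 1 library left out, limma called between 1 and 2 members, and 0 in each cluster. Fewer samples enter these fits. At a threshold of 0.05, the share called over all genes was 2.91% over 6 libraries as deposited. It was 2.3% in the 4-library table and 2.25% in limma on the recovered reads. For the other settings that share was not computed, so those counts have no background to be read against. In the 4-library table Meis2 passed the threshold, at a log2 fold change of -0.33, and without 1 library limma gave -0.36 to -0.26. The partners of Pcdh15 had 0 calls in the 4-library table. The alpha median was -0.21 at a base mean of at least 100, where 1 gene remains, and 0.34 as an unmoderated ratio. Over all 6 libraries the other unmoderated medians were 0.27 (all members), 0.24 (beta), 0.29 (gamma) and 0.18 (nonclustered). The ranges of the unmoderated median that follow belong with these values, not with the moderated medians given earlier. Without 1 library the unmoderated median ranged from 0.15 to 0.37 over all members, 0.22 to 0.49 for alpha, 0.14 to 0.33 for beta, 0.13 to 0.42 for gamma and 0.15 to 0.22 for nonclustered members. The log2 ratio of summed reads ranged from 0.11 to 0.24 over all members, -0.035 to 0.11 for alpha, 0.13 to 0.32 for beta, 0.12 to 0.38 for gamma and 0.10 to 0.16 for nonclustered members. Pcdhgc3 turned to -0.0096 in the 4-library table. Without 1 library, limma gave values that included a turn of sign, lowest and highest, of -9.15e-04 and 0.23 for Pcdh1, -0.012 and 0.198 for Pcdh12, -0.237 and 0.0138 for Pcdha9, -0.141 and 0.368 for Pcdhac1, -5.20e-04 and 0.263 for Pcdhb19 and -0.0384 and 0.0738 for Pcdhgc3. Over all changes of setting, these turns included, the 31 named members kept their direction and call in 289 of 310 cases. Only 3 of the 31 were called, so for most a kept call means that they stayed uncalled. Centring on the median of all genes kept the deposited adjusted p and could not change a call. The direction turned in 8 cases, and in 13 Pcdh9 or Pcdh19 missed the threshold. The cause was not tested.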
